A study of Mus musculus with 75 samples.

Results

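Myod1, Myog, Myf6, Pax7, Mef2a, Mef2c, Mef2d, Hdac4 and Jarid2 were followed in the gastrocnemius, a largely fast-twitch calf muscle, of mice with and without C26 tumours and chemotherapy. These genes set or restrain the muscle gene programme. They were chosen by gene symbol, with no measured value in the rule, but earlier results of these data were known at the choice. All 9 were present among the 13856 genes of the deposited expression table.

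Myod1, Myog and Myf6 encode MyoD, myogenin and MRF4, basic helix-loop-helix proteins that pair with E proteins, bind E-boxes and switch on muscle genes. Pax7 encodes the transcription factor of satellite cells, the stem cells of muscle, whose progeny are committed by MyoD and differentiate under myogenin, while MRF4 is the myogenic factor known for its high level in adult fibres. Mef2a, Mef2c and Mef2d encode MEF2 factors, which bind A/T-rich elements of muscle promoters and act together with the myogenic factors. HDAC4 is a class IIa histone deacetylase that binds MEF2 and represses it, and in denervated muscle it is known to act upstream of myogenin. JARID2 is an accessory protein of Polycomb repressive complex 2, which methylates histone H3 at silenced genes.

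All mice were Balb/c, and their age is not legible in the design text. Cells of C26, a colon carcinoma line used as a model of cancer cachexia, were injected on both sides, and control mice got phosphate-buffered saline (PBS) in their place. Treatment of the tumour-bearing mice began on day 12, with saline, 5-fluorouracil (an antimetabolite that starves cells of thymidine), paclitaxel (a microtubule stabiliser) or cisplatin (a DNA crosslinker). Drugs were dosed in 2 cycles at 75% of the maximum tolerated dose. Muscle was taken at day 25. PBS mice received saline, so every drug group also carried tumours and was compared with C26 mice on saline. No drug was given without a tumour, so an effect of a drug on muscle and an effect through the tumour cannot be told apart. In females there were 7 PBS, 7 C26 saline, 8 C26 5-fluorouracil, 7 C26 paclitaxel and 6 C26 cisplatin libraries, and in males 8, 8, 8, 6 and 8. The labels do not say that each library is 1 mouse, and p-values then reflect only the scatter among these libraries, which may be partly technical.

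Promoter sequence was read for the members in RefSeq (mouse build GRCm38.p6), where 7 of the 9 had an entry, with 10 start sites in all. The sequences below are the 250 bases before a start site of the 3 members whose windows held an E-box (CANNTG) and which changed in males, given 5′ to 3′ on the plus strand. Capitals mark matches to CANNTG and to CTANNNNTA, searched on both strands. The second is a loose form of the A/T-rich MEF2 element, as any base may stand at its N positions.
Myog, chr1:134289754-134290003: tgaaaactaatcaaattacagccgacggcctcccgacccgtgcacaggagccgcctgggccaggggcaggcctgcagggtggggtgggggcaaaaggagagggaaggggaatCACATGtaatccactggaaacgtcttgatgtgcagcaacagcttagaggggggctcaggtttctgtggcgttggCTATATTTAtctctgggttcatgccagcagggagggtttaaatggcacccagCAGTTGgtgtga
Jarid2, second start site, chr13:44731021-44731270: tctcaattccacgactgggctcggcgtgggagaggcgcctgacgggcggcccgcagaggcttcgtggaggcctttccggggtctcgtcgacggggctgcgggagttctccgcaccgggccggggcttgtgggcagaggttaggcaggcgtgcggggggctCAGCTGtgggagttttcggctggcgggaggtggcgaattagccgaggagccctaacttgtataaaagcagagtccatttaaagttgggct
Mef2c, first start site, chr13:83503784-83504033: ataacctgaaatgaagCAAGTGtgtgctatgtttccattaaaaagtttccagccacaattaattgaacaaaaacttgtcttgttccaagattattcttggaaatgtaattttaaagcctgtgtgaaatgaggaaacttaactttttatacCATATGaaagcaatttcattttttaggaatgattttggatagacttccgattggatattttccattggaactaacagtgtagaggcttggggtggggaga
The Myog window held the E-boxes CACATG, at -138 to -133 from the start site, and CAGTTG, at -12 to -7, with CTATATTTA between them at -64 to -56. In the Jarid2 window the only match was CAGCTG, the E-box form preferred by MyoD and myogenin, at -90 to -85. The Mef2c window held CAAGTG at -234 to -229 and CATATG at -100 to -95. A further Mef2c start site had CAGATG and CTAACGATA in its window, and no match was found in the windows of Hdac4, Mef2a, Mef2d and Pax7 or at the other start sites of Jarid2 and Mef2c. Over all 32851 promoter windows of this length 66.2% held CANNTG, 13.0% held CAGCTG and 19.0% held CTANNNNTA, so a match describes the letters and does not show that a factor was bound. The stricter MEF2 consensus has only A or T at the N positions, C or T as its first base, and A or G after its last A. It was held by 2.92% of windows and is not marked. CTATATTTA of the Myog window has only A or T at the N positions but is followed by T, where this consensus needs A or G.

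Expression is given on the deposited scale, log2 of estimated counts (plus 0.5) divided by a scaled library size in M (mega), and a difference of 1 is a doubling. This scale is not divided by transcript length, so levels are compared between groups and not between genes. Counts recovered from the values summed to 11.4 to 40.5 M per library (median 22.5 M), and the members rested on counts as low as 8 to 178 per library for Pax7 and as high as 1248 to 15190 for Mef2c. Libraries of 1 group differed in how their values followed the GC content of transcripts. The GC slope of a library (log2 units of its deviation from the mean library per SD of GC content) exceeded 0.1 in 19 of 73 libraries, called high-slope libraries below. In males these were 0 of 8 C26 saline, 2 of 8 PBS, 2 of 8 cisplatin, 4 of 8 5-fluorouracil and 4 of 6 paclitaxel libraries. In females they were 2 of 7 PBS, 1 of 7 C26 saline, 2 of 8 5-fluorouracil, 2 of 7 paclitaxel and 0 of 6 cisplatin libraries. Results that depend on those libraries are given with and without them, or with the slope as a term of the fit. Mitochondrial genes held 1.65 to 5.14% of the summed linear values in high-slope libraries and 4.67 to 17.7% in the other libraries. What the slope reflects beyond GC content was not tested. A female library whose title and treatment label disagree was left out.

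The defining markers of myofibres (6 of 6 measured, summed level 16.3 to 17.9 in every library) fitted the labelled tissue. Neutrophil markers were 6 of 6 higher in C26 saline than in PBS muscle in both sexes, at a summed level of 3.21 to 4.95 against 0.48 to 3.53 in males and 2.14 to 5.11 against -0.52 to 1.61 in females. Macrophage markers were higher for 4 of 6 genes in males and 2 of 6 in females. Beside these counts, 13.1% of all genes were called higher in males and 4.14% in females (adjusted p under 0.05 by limma). Of the 5 B cell markers Cd79b and Ighm were measured, with a summed level of -0.14 to 3.92 in male C26 saline against 5.43 to 6.85 in male PBS libraries, and of the 5 T cell markers none was in the table.

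Differences were tested with limma on all 13856 genes, with Benjamini-Hochberg adjustment over the table, and a gene was called at an adjusted p under 0.05; values after ± are standard errors for differences and SDs for levels. In males the tumour alone changed 5 of the 9 genes: Myog and Myf6 rose, and Myod1, Mef2c and Jarid2 fell, where 26.1% of all genes were called, 13.1% higher and 13% lower. In females 1 rose (Myf6) and 1 fell (Jarid2), where 6.7% of all genes were called, 4.14% higher and 2.56% lower. The median size of the difference was 1.05 over the 9 genes and 0.26 over all genes in males, and 0.50 against 0.19 in females. These medians include differences that were not called. Because the 9 genes were chosen with earlier results of these data known, their larger sizes are a description only. Mef2d and Pax7 were called in no comparison of this fit.

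Against C26 saline, male 5-fluorouracil libraries had 2 members higher (Hdac4, Jarid2) and 1 lower (Myf6), where 23.3% of all genes were called (11.3% higher, 12% lower). Male paclitaxel had 2 higher (Hdac4, Jarid2) and 2 lower (Myf6, Mef2a), against 31.9% of all genes (13.5% and 18.5%), and male cisplatin 3 higher (Hdac4, Jarid2, Mef2c) and 1 lower (Myf6), against 15.9% (7.66% and 8.23%). Each of the 3 male drug groups thus had Hdac4 and Jarid2 above and Myf6 below the same C26 saline libraries, which all 3 comparisons share. In females Jarid2 was higher with 5-fluorouracil (1.35% of all genes called, 0.152% higher) and Myf6 was lower with cisplatin (1.66% called, 1.31% lower). Female paclitaxel called 0 members and 0 of all genes by limma, which is 0%, although 845 genes had an unadjusted p under 0.05 and 118 were called with quality weights.

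**Figure D1:**
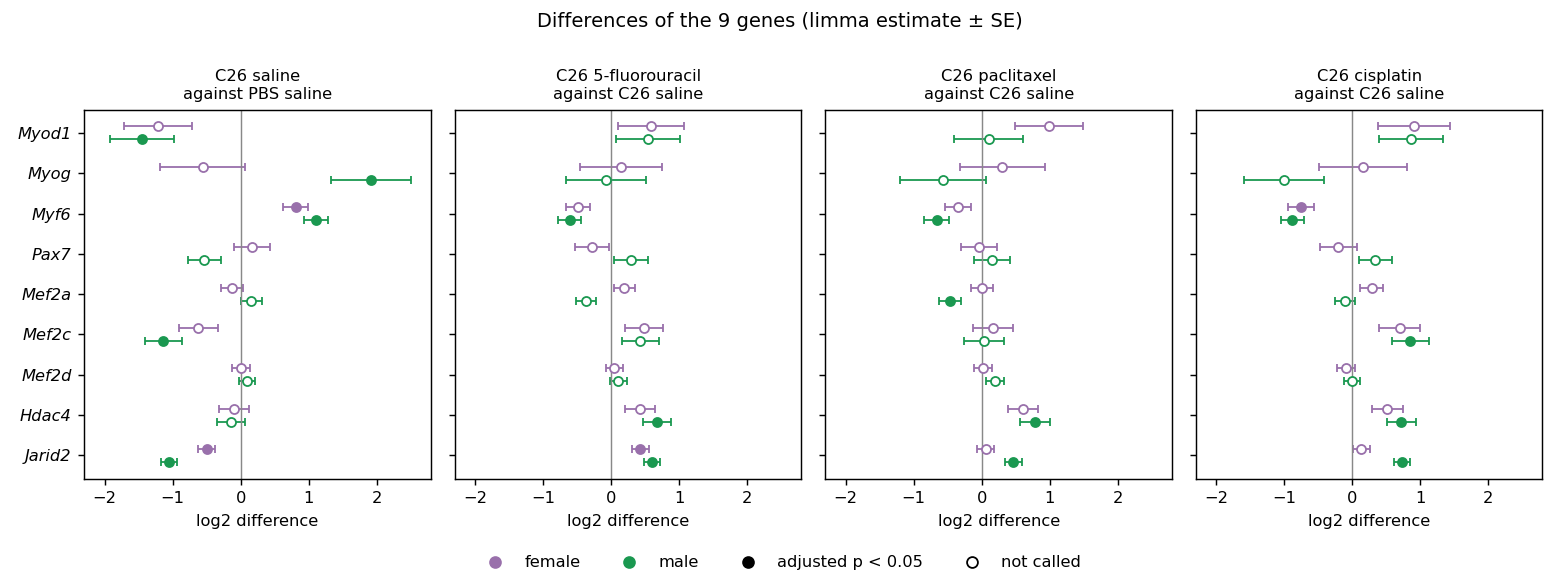
Log2 differences of the 9 genes (x axis, limma estimate ± SE) for the tumour against PBS saline and for each drug against C26 saline, females in purple and males in green, with filled points where the adjusted p was under 0.05. Jarid2 and Myod1 lie below 0 with the tumour in both sexes, and Hdac4 lies above 0 with each drug in both sexes.

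Myod1, the factor that commits satellite cell progeny to muscle, was lower in most tumour-bearing male muscles. In the 8 male PBS libraries it lay between 4.87 and 5.90 (median 5.15), and in the 8 male C26 saline libraries between 2.43 and 5.82 (median 3.03). The tumour group was spread over both ranges: 5 of its libraries lay below every PBS library and 3 lay within the PBS range. Myod1 fell by 1.45 ± 0.47 in males (2.74-fold lower, adjusted p = 0.0152 by limma), and this call held when any 1 library was left out. In females it lay between 3.28 and 5.54 (median 4.54) with PBS and between 1.91 and 4.42 (median 3.19) with the tumour. The female difference of -1.21 ± 0.50 was not called (adjusted p = 0.152 by limma), with 4 of 7 tumour libraries below every PBS library, but it was called with the high-slope libraries left out (-1.52, adjusted p = 0.0373).

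With the drugs no difference of Myod1 from C26 saline was called. The estimates lay above C26 saline in all 6 comparisons, between 0.10 ± 0.51 with paclitaxel in males and 0.99 ± 0.50 with paclitaxel in females. Male paclitaxel libraries ranged most widely, from 1.33 to 6.44 (median 4.46), with 2 of the 6 below every C26 saline library. Male 5-fluorouracil libraries lay between 2.87 and 5.78 (median 4.30) and male cisplatin libraries between 3.73 and 5.41 (median 4.71). Against male PBS, Myod1 was lower with paclitaxel (-1.35 ± 0.51, adjusted p = 0.0317 by limma), a call lost without paclitaxel replicate 2 (-0.90) or 3 (-0.83) and with the high-slope libraries left out (-0.67). Female drug libraries together spanned 2.94 to 5.06.

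Myog, which encodes the factor of terminal differentiation that is also induced by denervation, was higher in male tumour-bearing muscle. Male PBS libraries lay between 2.27 and 3.88 (median 3.08) and male C26 saline libraries between 2.46 and 7.06 (median 5.58). Again the tumour group was split, with 5 of 8 libraries above every PBS library and 3 within the PBS range. Myog rose by 1.92 ± 0.58 (3.78-fold, adjusted p = 0.00964 by limma), a call that held when any 1 library was left out. Female levels were 3.37 to 3.98 (median 3.77) with PBS and 1.89 to 4.97 (median 3.02) with the tumour. There 5 of 7 tumour libraries lay below every PBS library and 1 above, and the difference of -0.56 ± 0.63 was not called (adjusted p = 0.709 by limma).

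The tumour effect on Myog was 2.48 ± 0.86 higher in males than in females, but this interaction did not pass the threshold (adjusted p = 0.315 by limma) except with quality weights (2.34, adjusted p = 0.0286). Across the 4 interactions between sex and treatment 0 members were called, where 5 genes (0.0361%) were called for the tumour and 0 (0%) for each drug. At an unadjusted p under 0.05 there were 1132 genes for the tumour and 2044, 2704 and 1993 for 5-fluorouracil, paclitaxel and cisplatin. For Jarid2 the interaction was -0.55 ± 0.17 for the tumour (adjusted p = 0.246 by limma) and 0.59 ± 0.17 for cisplatin (adjusted p = 0.181). That for the tumour was called with quality weights (-0.65) and without male C26 saline replicate 4 (-0.64, adjusted p = 0.0405), and so was that for cisplatin (adjusted p = 0.00297 and 0.0265).

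Myog was not called in any comparison of a drug with C26 saline. Male 5-fluorouracil libraries lay between 3.40 and 7.24 (median 4.96), paclitaxel libraries between 2.87 and 7.79 (median 3.49) and cisplatin libraries between 2.46 and 8.23 (median 3.58). The cisplatin group held 7 libraries at or below 4.35 and 1, replicate 4, at 8.23. Its difference from C26 saline was -1.0 ± 0.58 (adjusted p = 0.257 by limma), and without that library it was -1.60 and called (adjusted p = 0.0323). Against male PBS, all 8 5-fluorouracil libraries lay above the PBS mean, and the difference of 1.85 ± 0.58 was just outside the threshold (adjusted p = 0.0502 by limma). Female drug libraries lay between 2.43 and 5.08.

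**Figure D2:**
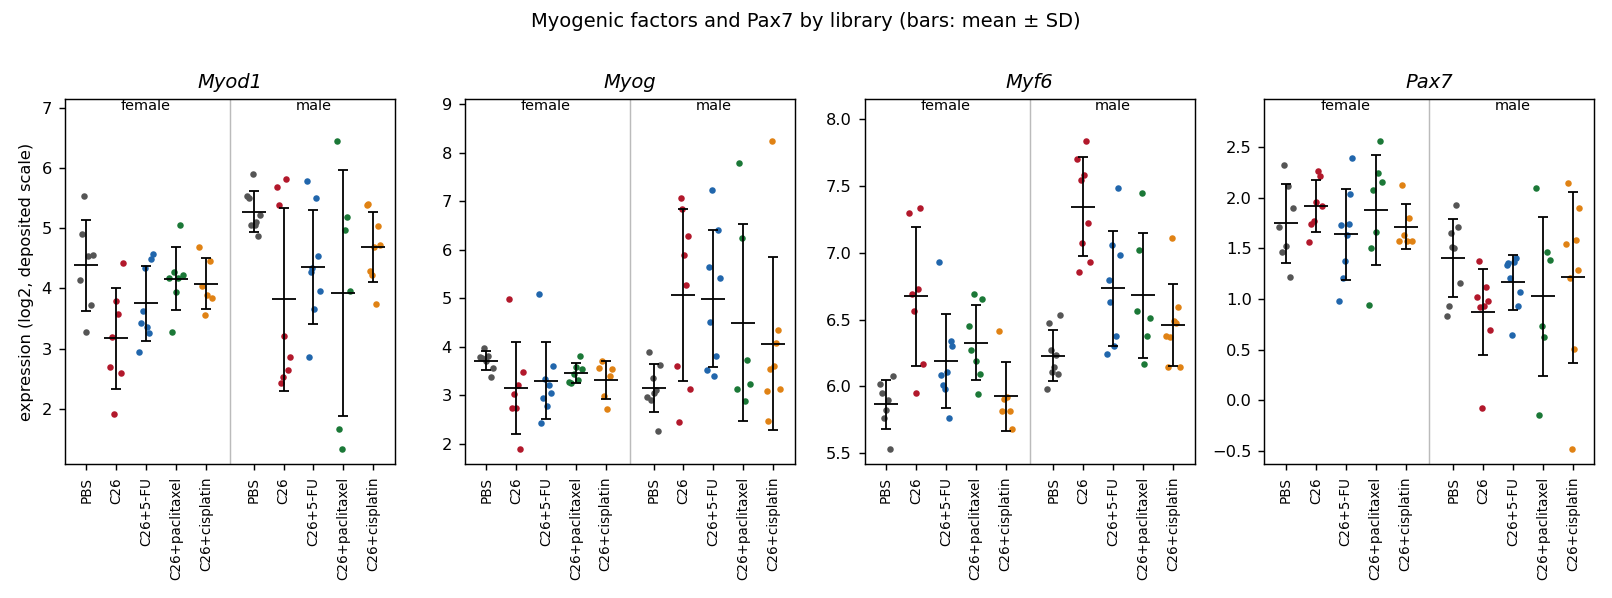
Expression of Myod1, Myog, Myf6 and Pax7 (y axes, log2 on the deposited scale) in each library of the 10 groups, with the group mean ± SD as bars. Myod1 and Myog of male C26 saline and male paclitaxel libraries spread over several log2 units, while Myf6 of male C26 saline libraries lies between 6.85 and 7.83, above every male PBS library.

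Low Myod1 and high Myog were found in the same libraries in part. Of the 5 C26 saline libraries with Myod1 below every male PBS library, 4 also had Myog above every male PBS library, as had 5 of all 8 libraries of the group. With 5-fluorouracil it was 5 of 6 such libraries, beside 5 of 8 in the group, with paclitaxel 2 of 3, beside 2 of 6, and with cisplatin 2 of 5, beside 3 of 8, so that for cisplatin the shares hardly differed. In females it held for 1 of 4 C26 saline and 1 of 2 5-fluorouracil libraries. Within groups, over 73 libraries, Myod1 and Myog had a Pearson r of -0.47 and a Spearman rho of -0.29, and r was -0.48 over the 54 libraries of lower GC slope; these values describe libraries that share a scaling and carry no test.

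**Figure D3:**
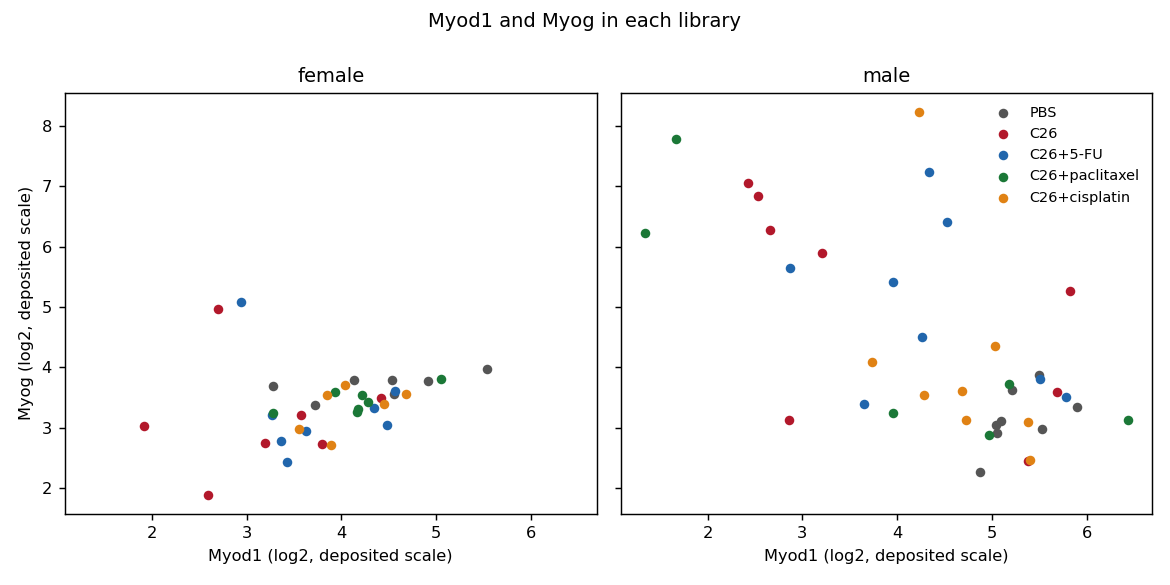
Myod1 (x axis) against Myog (y axis), log2 on the deposited scale, 1 point per library, females left and males right, coloured by group. Male PBS libraries cluster at high Myod1 and low Myog, and libraries of all 4 male tumour-bearing groups extend towards low Myod1 and high Myog.

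Satellite cell markers went both ways with the male tumour. Pax7, Myf5, Cdh15, Megf10, Calcr and Chodl (6 of 6 measured) had a summed level of 5.00 to 5.69 in male C26 saline against 4.76 to 4.93 in male PBS libraries, and 4.97 to 5.96 against 4.76 to 5.43 in females. In males Cdh15 rose (0.83 ± 0.19) and Calcr fell (-0.77 ± 0.30), beside 26.1% of all genes called. The Calcr value was close to the threshold (adjusted p = 0.0458 by limma). Pax7 was below the PBS mean in all 8 male tumour libraries. In females 0 of the 6 were called by limma, beside 6.7% of all genes, and the part of these markers in the Myod1 difference was not tested. In bulk muscle fewer cells of a type and less RNA per cell cannot be told apart, and the part of cell numbers in these results was not tested.

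Myf6, whose product MRF4 is the myogenic factor of mature fibres, rose with the tumour in both sexes and was lower with each drug in males. In females its estimates were lower with each drug, but only the cisplatin difference was called. Male PBS libraries lay between 5.98 and 6.54 (median 6.19) and male C26 saline libraries between 6.85 and 7.83 (median 7.39), so the groups did not overlap. How many of all genes separated in this way was not counted. The rise was 1.11 ± 0.17 (2.16-fold, adjusted p = 8.06e-07 by limma). In females PBS libraries lay between 5.53 and 6.08 (median 5.90) and C26 saline libraries between 5.95 and 7.33 (median 6.69), with 6 of 7 above every PBS library. That rise was 0.81 ± 0.18 (1.75-fold, adjusted p = 0.00244 by limma), and both calls held when any 1 library was left out.

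With 5-fluorouracil male Myf6 lay between 6.24 and 7.48 (median 6.71), with paclitaxel between 6.16 and 7.45 (median 6.54) and with cisplatin between 6.14 and 7.11 (median 6.42). All 8 cisplatin libraries, 7 of 8 5-fluorouracil and 5 of 6 paclitaxel libraries lay below the mean of C26 saline. Relative to C26 saline Myf6 fell by 0.61 ± 0.17 with 5-fluorouracil (adjusted p = 0.00798 by limma), by 0.66 ± 0.19 with paclitaxel (adjusted p = 0.00725) and by 0.88 ± 0.17 with cisplatin (adjusted p = 0.000155). In females only the cisplatin difference was called, at -0.75 ± 0.19 (adjusted p = 0.0251 by limma). Cisplatin libraries there lay between 5.68 and 6.42, with 5 of 6 below every C26 saline library. That call was lost without C26 saline replicate 1 or 6 or cisplatin replicate 3, 5 or 6 (-0.75 to -0.64). The female differences with 5-fluorouracil (-0.49 ± 0.18) and paclitaxel (-0.35 ± 0.18) were not called, and no interaction with sex was called.

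Compared with PBS, Myf6 with cisplatin differed by 0.23 ± 0.17 in males and 0.06 ± 0.19 in females, neither called. With paclitaxel in males it was 0.45 ± 0.19 higher (adjusted p = 0.0495 by limma). This value passed the threshold only narrowly: it was called in 5 of 14 fits that left out 1 library, and at 0.13 it was not called with the high-slope libraries left out.

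Pax7, the satellite cell factor, gave low values and no call in the 8 main comparisons. It lay between 0.83 and 1.93 (median 1.51) in male PBS and between -0.07 and 1.37 (median 0.95) in male C26 saline libraries, of which all 8 were below the PBS mean. The male difference was -0.53 ± 0.25 (adjusted p = 0.102 by limma), and -0.59 with an adjusted p of 0.0193 with the high-slope libraries left out. In females it lay between 1.21 and 2.32 (median 1.71) with PBS and between 1.56 and 2.26 (median 1.92) with the tumour, a difference of 0.17 ± 0.26. The drug differences lay between -0.28 and 0.34. Male paclitaxel (-0.15 to 2.09) and male cisplatin (-0.48 to 2.15) libraries spread most, at counts where sampling error is large.

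Mef2c, the MEF2 factor that maintains sarcomere and calcium-handling genes in fibres, was lower in male tumour-bearing muscle. Male PBS libraries lay between 7.74 and 8.97 (median 8.66) and male C26 saline libraries between 6.61 and 8.29 (median 7.30). All 8 tumour libraries were below the PBS mean and 5 were below every PBS library. Mef2c fell by 1.14 ± 0.27 (2.20-fold lower, adjusted p = 0.000914 by limma), also with any 1 library left out. Female values were 8.13 to 9.11 (median 8.54) with PBS and 7.32 to 8.62 (median 7.97) with the tumour, with 5 of 7 below every PBS library. The female difference of -0.62 ± 0.29 was not called (adjusted p = 0.223 by limma), but it was called after adjustment for GC slope (-0.52, adjusted p = 0.0283) and with the high-slope libraries left out (-0.68, adjusted p = 0.0280).

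Mef2c is also expressed in endothelial and B cells. The endothelial list (6 of 6 measured) had a summed level of 7.45 to 8.26 in male C26 saline and 7.65 to 8.10 in male PBS libraries. Of its genes 1 was called higher and 2 lower, beside 13.1% and 13% of all genes. B cell markers were lower in the same libraries, as given above, and their part in the Mef2c difference was not tested.

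The drug values of Mef2c differed between settings. Male cisplatin libraries lay between 6.72 and 8.96 (median 8.35), and the rise over C26 saline of 0.86 ± 0.27 (1.81-fold, adjusted p = 0.0223 by limma) was lost without C26 saline replicate 5 or 6 or cisplatin replicate 3 or 5 (0.75 to 0.77). Male 5-fluorouracil libraries lay between 6.65 and 8.57 (median 7.89), with a difference of 0.43 ± 0.27 that was not called, and that became 0.92 (adjusted p = 4.77e-05) after adjustment for the slope and 0.96 (adjusted p = 0.00146) with the high-slope libraries left out. Male paclitaxel libraries lay between 6.41 and 8.60 (median 7.09). There the difference went from 0.04 ± 0.29 to 0.86 (adjusted p = 0.0110) and 1.13 (adjusted p = 0.0145) under the same settings, the last resting on 2 paclitaxel libraries. In females Mef2c lay 0.48 ± 0.28, 0.17 ± 0.29 and 0.70 ± 0.30 above C26 saline with 5-fluorouracil, paclitaxel and cisplatin, none called in the fit of all libraries.

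**Figure D4:**
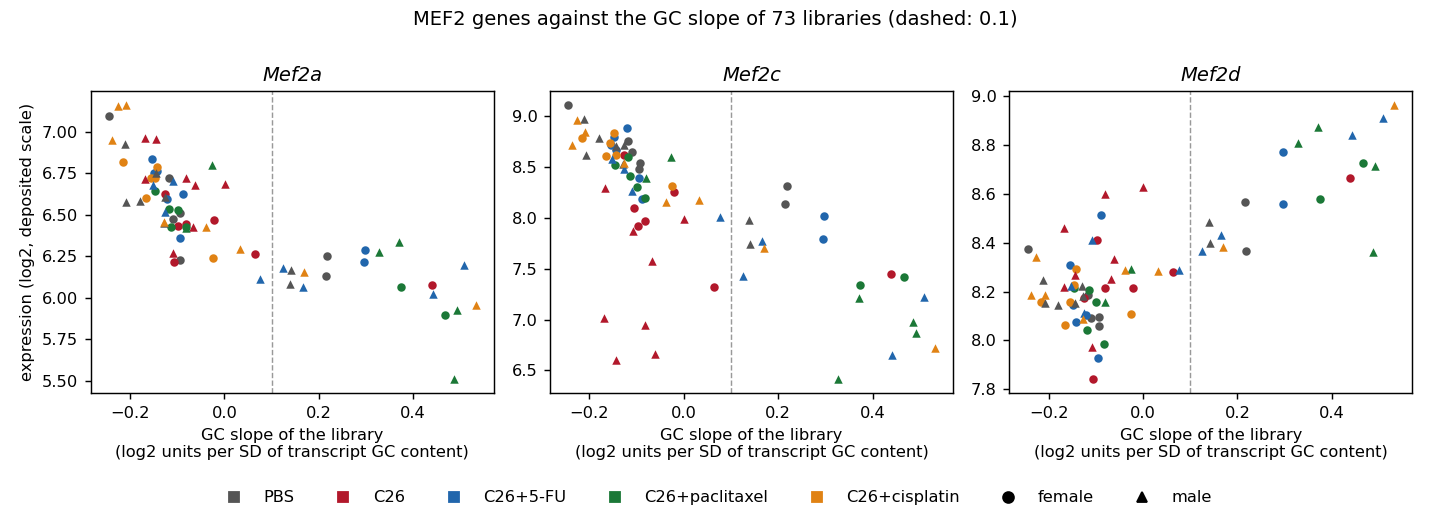
Expression of Mef2a, Mef2c and Mef2d (y axes, log2 on the deposited scale) against the GC slope of the library (x axis, log2 units per SD of transcript GC content) for 73 libraries, circles for females and triangles for males, coloured by group, with a dashed line at 0.1. Mef2a and Mef2c fall and Mef2d rises with the slope.

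Mef2a and Mef2d, the MEF2 factors of broad expression, varied with the GC slope of libraries within groups. Within groups the Pearson r with the slope over 73 libraries was -0.79 for Mef2a, -0.82 for Mef2c and 0.78 for Mef2d, and 0.40 or less in size for the other 6 genes. The longest transcripts of Mef2c and Mef2a had a GC content of 40.8% and 42.0%, and that of Mef2d 55.0%. This placed them at percentiles 7.45, 11.3 and 76.7 of the 10637 genes matched to the annotation whose mean log2 reached 1. Over the 54 libraries at or below a slope of 0.1 the r with the slope was -0.72 for Mef2a, -0.48 for Mef2c and 0.10 for Mef2d.

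Levels of Mef2a were 6.08 to 6.93 (median 6.58) in male PBS, 6.27 to 6.96 (median 6.70) in male C26 saline and 5.51 to 6.80 (median 6.30) in male paclitaxel libraries. The fall of 0.46 ± 0.16 with paclitaxel (adjusted p = 0.0252 by limma) was not called after adjustment for the slope (-0.03) or with the high-slope libraries left out (-0.07), nor without C26 saline replicate 6 or 7 or paclitaxel replicate 1 or 5 (-0.42 to -0.32). In the other 7 main comparisons Mef2a differed by -0.37 to 0.29 and was not called. Mef2d lay between 7.84 and 8.96 in all libraries, and its main differences spanned -0.09 to 0.04 in females and -0.00 to 0.19 in males, with SEs of 0.12 to 0.13.

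**Figure D5:**
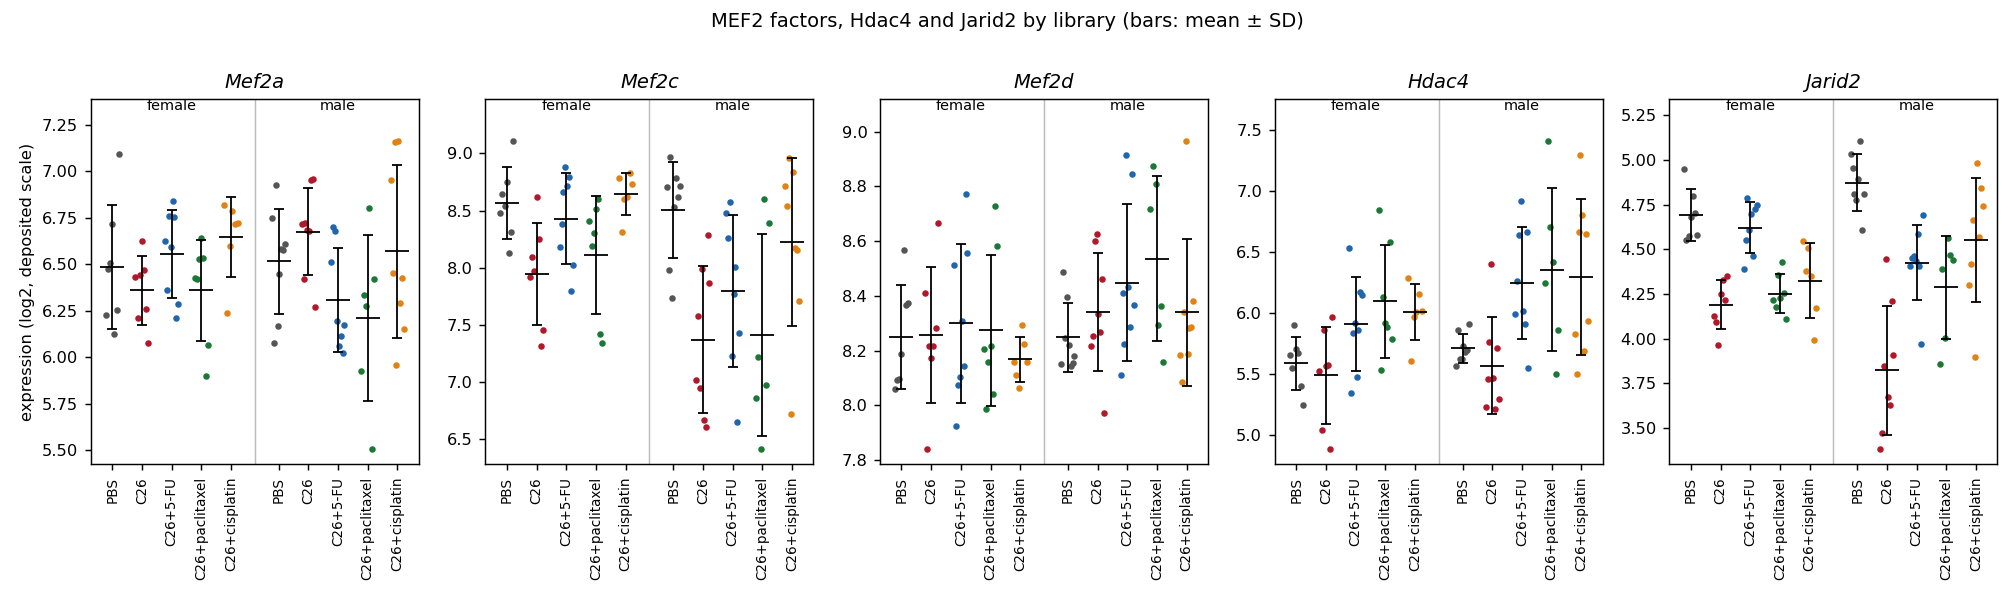
Expression of Mef2a, Mef2c, Mef2d, Hdac4 and Jarid2 (y axes, log2 on the deposited scale) in each library of the 10 groups, with the group mean ± SD as bars. Jarid2 of male C26 saline libraries (3.38 to 4.45) lies below every male PBS library (4.61 to 5.10), and Hdac4 of the drug groups extends above the PBS and C26 saline groups.

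Hdac4, the MEF2 repressor, did not differ detectably with the tumour alone but was higher with each drug in males. It lay between 5.57 and 5.91 (median 5.69) in male PBS and between 5.22 and 6.40 (median 5.47) in male C26 saline libraries, a difference of -0.14 ± 0.21. With 5-fluorouracil it lay between 5.55 and 6.92 (median 6.14), with paclitaxel between 5.50 and 7.40 (median 6.33) and with cisplatin between 5.50 and 7.29 (median 6.29). In each drug group all libraries but 1 were above the C26 saline mean, and the ranges overlapped.

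Relative to male C26 saline Hdac4 rose by 0.67 ± 0.21 with 5-fluorouracil (1.60-fold, adjusted p = 0.0148 by limma), 0.79 ± 0.23 with paclitaxel (1.72-fold, adjusted p = 0.00826) and 0.73 ± 0.21 with cisplatin (1.65-fold, adjusted p = 0.0107). The 5-fluorouracil call was lost without 5-fluorouracil replicate 4 (0.58, adjusted p = 0.0550). For paclitaxel it was lost without paclitaxel replicate 2 (0.58, adjusted p = 0.0544), after adjustment for GC slope (0.57, adjusted p = 0.150) and with the high-slope libraries left out (0.57, adjusted p = 0.241). The cisplatin call held in each of the 16 fits that left out 1 library, but not in a fit of the compared groups alone (adjusted p = 0.0712). In females Hdac4 lay above C26 saline by 0.42 ± 0.22, 0.61 ± 0.22 and 0.52 ± 0.23 with the 3 drugs, none called by limma. All 7 female paclitaxel and all 6 female cisplatin libraries were above the C26 saline mean. Female levels were 5.25 to 5.91 with PBS, 4.89 to 5.97 with C26 saline, 5.35 to 6.53 with 5-fluorouracil, 5.54 to 6.84 with paclitaxel and 5.61 to 6.28 with cisplatin.

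Jarid2, the Polycomb accessory factor, gave the smallest adjusted p of the 9 genes with the tumour in males and separated the groups in both sexes. Male PBS libraries lay between 4.61 and 5.10 (median 4.85) and male C26 saline libraries between 3.38 and 4.45 (median 3.76). Female PBS libraries lay between 4.55 and 4.95 (median 4.68) and female C26 saline libraries between 3.96 and 4.35 (median 4.21). In neither sex did the groups overlap, but how many of all genes separated in this way was not counted. Jarid2 fell by 1.05 ± 0.12 in males (2.07-fold lower, adjusted p = 2.72e-10 by limma) and by 0.50 ± 0.12 in females (1.42-fold lower, adjusted p = 0.00556), and both calls held when any 1 library was left out.

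With the drugs Jarid2 lay between the tumour and the PBS levels in males. It was 3.97 to 4.69 (median 4.44) with 5-fluorouracil, 3.86 to 4.56 (median 4.41) with paclitaxel and 3.89 to 4.98 (median 4.62) with cisplatin. Every library of each drug group was above the C26 saline mean. Jarid2 rose by 0.60 ± 0.12 with 5-fluorouracil (1.52-fold, adjusted p = 0.000126 by limma), 0.46 ± 0.12 with paclitaxel (1.38-fold, adjusted p = 0.00534) and 0.73 ± 0.12 with cisplatin (1.66-fold, adjusted p = 7.35e-06). These calls held after adjustment for GC slope, with the high-slope libraries left out and when any 1 library was left out, and the paclitaxel call was lost in a fit of the compared groups alone (adjusted p = 0.0649).

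In females 5-fluorouracil was the drug with a called difference in Jarid2. Its 8 libraries lay between 4.39 and 4.79, all above the 7 C26 saline libraries (a separation not counted over all genes). The rise was 0.43 ± 0.12 (1.35-fold, adjusted p = 0.0477 by limma). This adjusted p was close to the threshold: the call was made in 5 of 15 fits that left out 1 library, and it was lost under a replicate block (0.41, adjusted p = 0.0732) and with the high-slope libraries left out (0.42, adjusted p = 0.0567). Paclitaxel (4.11 to 4.43, difference 0.06 ± 0.12) and cisplatin (3.99 to 4.55, difference 0.13 ± 0.13) were not called.

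The drug groups were also set against PBS, with the same PBS libraries in each comparison of a sex. In males 1 member was called with 5-fluorouracil (Jarid2, -0.45 ± 0.12), where 4.76% of all genes were called and 2.24% were lower, 5 with paclitaxel, where 37.5% were called, 16.9% higher and 20.6% lower, and 0 with cisplatin, where 0.902% were called. In females 0 were called with 5-fluorouracil (0.383% of all genes), 1 with paclitaxel (Jarid2, -0.44 ± 0.12; 4.58% of all genes called, 1.69% lower) and 0 with cisplatin (0.209%). At an unadjusted p under 0.05 the groups of 0 members had 920 (female 5-fluorouracil), 1174 (female cisplatin) and 1649 (male cisplatin) genes. All 7 female paclitaxel libraries lay below every PBS library for Jarid2, a separation not counted over all genes. The Jarid2 call there (adjusted p = 0.0229 by limma) was lost without PBS replicate 1, paclitaxel replicate 2 or 7 (-0.43 to -0.40) or the high-slope libraries (-0.39). The male 5-fluorouracil call of Jarid2 was lost without 5-fluorouracil replicate 7 (-0.38, adjusted p = 0.0822) and with the high-slope libraries left out (-0.44, adjusted p = 0.122). The 5 members called with paclitaxel in males were Jarid2, Mef2c and Myod1 (lower) and Hdac4 and Myf6 (higher). That count was 1 after adjustment for GC slope and 0 with the high-slope libraries left out, where 1235 and 10 of all genes were called.

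In the order of group means, neighbours mostly differed by less than their spread. Of the 72 gaps between neighbouring groups (4 for each gene and sex) 6 exceeded the larger of the SDs. These were, in males, Myod1 between cisplatin and PBS (4.68 and 5.27), Myf6 between 5-fluorouracil and C26 saline (6.73 and 7.34), Hdac4 between PBS and 5-fluorouracil (5.71 and 6.24) and Jarid2 between C26 saline and paclitaxel (3.82 and 4.29). In females they were Myog between paclitaxel and PBS (3.46 and 3.71) and Jarid2 between cisplatin and 5-fluorouracil (4.32 and 4.62). Means of Jarid2 ran from C26 saline through paclitaxel and 5-fluorouracil to cisplatin and PBS in males, and from C26 saline through paclitaxel and cisplatin to 5-fluorouracil and PBS in females.

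Among the members, libraries with high Myog within their group also had high Mef2d (r = 0.65), Hdac4 (0.64) and Myf6 (0.58) and low Pax7 (-0.57) over 73 libraries. Over the 54 libraries of lower GC slope these were 0.65, 0.49, 0.41 and -0.34. The r of Mef2c with Mef2d went from -0.64 to -0.01 between the same sets of libraries, and that of Mef2a with Mef2c from 0.69 to 0.41. Outside the members, the genes most like each one within groups were Fn3krp for Myod1 (r = 0.81), the kinase gene Sik1 for Myog (0.87), Tmem140 for Myf6 (0.77) and Slc35c1 for Pax7 (0.69). For the others they were Hipk3 for Mef2a (0.92), the MEF2 target Xirp2 for Mef2c (0.92), Thop1 for Mef2d (0.92), Zmiz1 for Hdac4 (0.82) and Clasp1 for Jarid2 (0.70). Over all libraries, group differences included, the closest were Styxl2 for Myod1 (0.82), Sdc4 for Myog (0.85), Tmem140 for Myf6 (0.87), Ago1 for Pax7 (0.70), Mbnl1 for Mef2a (0.91), Pitpnc1 for Mef2c (0.94), Tjap1 for Mef2d (0.92), Zmiz1 for Hdac4 (0.80) and the chloride channel gene Clcn1 for Jarid2 (0.83). Shared depth, scaling and GC slope enter all of these values, which are descriptions over 73 libraries.

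Further genes of the pathway are given by list, and each count of a list is to be read against the share of all genes called in the same comparison. In males that share was 26.1% with the tumour and, against C26 saline, 23.3% with 5-fluorouracil, 31.9% with paclitaxel and 15.9% with cisplatin. In females it was 6.7%, 1.35%, 0% and 1.66%. For male paclitaxel the 4424 genes called became 506 after adjustment for GC slope, 722 with the high-slope libraries left out and 2983 with the compared groups alone. For male cisplatin the 2203 became 1028 with the compared groups alone.

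Genes downstream of HDAC4 and myogenin in denervated muscle were mostly called with the male tumour. Of 13 measured genes of this list, 9 rose and 1 fell, beside 26.1% of all genes called. Their median difference was 0.96, while the median over all genes was 0.00. The ubiquitin ligase genes Trim63 (MuRF1) and Fbxo32 (atrogin-1) rose by 2.45 ± 0.44 and 2.21 ± 0.38, and Runx1, a transcription factor induced by denervation, by 1.49 ± 0.24 (adjusted p = 2.27e-06 by limma). Among the others that rose were Chrna1, Chrnb1, Musk, Gadd45a and Sln, and the one that fell was Chrne, the acetylcholine receptor subunit of adult junctions (-1.04 ± 0.19). In females 3 rose and 0 fell, beside 6.7% of all genes called. These were Runx1 by 1.45 ± 0.26, Musk, the receptor kinase of the neuromuscular junction, by 1.30 ± 0.39 and Gadd45a by 0.89 ± 0.27. The Musk call was lost without PBS replicate 3 or C26 saline replicate 1, 6 or 7, and the Gadd45a call without PBS replicate 6 or 7 or C26 saline replicate 6.

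With the drugs this list went both ways in males: 3 rose and 3 fell with 5-fluorouracil, 3 and 1 with paclitaxel, and 2 and 4 with cisplatin. Beside these, 23.3%, 31.9% and 15.9% of all genes were called, and the paclitaxel count was near that share. Chrne rose by 1.18 ± 0.19, 0.67 ± 0.20 and 1.00 ± 0.19 with 5-fluorouracil, paclitaxel and cisplatin, and Ncam1, a neural cell adhesion molecule gene, also rose with each. Runx1 fell by 1.25 ± 0.24 with 5-fluorouracil and by 1.19 ± 0.24 with cisplatin. Fbxo32 fell with both of these drugs and Trim63 with cisplatin (-1.26 ± 0.38, -1.27 ± 0.38 and -1.30 ± 0.44), and Chrnb1 fell with all 3. With the GC slope as a covariate 0 genes were called for paclitaxel. In females 1 gene was called, Runx1 with 5-fluorouracil (-0.94 ± 0.25), beside 1.35% of all genes. That call was lost in 8 of 15 fits that left out 1 library.

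Of 18 muscle genes known as MEF2 targets, 2 rose and 5 fell with the male tumour (median -0.23), where 26.1% of all genes were called. Stac3, needed for excitation-contraction coupling, fell by 0.98 ± 0.19 and Smyd1, a myosin chaperone and methyltransferase gene, by 0.53 ± 0.11, while Xirp1, which encodes an actin-binding protein of damaged fibres, rose by 1.20 ± 0.24. Hrc, Slc2a4 and Pygm also fell and Ppargc1a, the coactivator gene of mitochondrial biogenesis, also rose. With 5-fluorouracil 7 rose and 0 fell against C26 saline, with paclitaxel 6 and 0, and with cisplatin 6 and 1 (Xirp1), beside 23.3%, 31.9% and 15.9% of all genes. Hrc, a calcium-binding protein of the sarcoplasmic reticulum, rose by 0.58 ± 0.12, 0.54 ± 0.13 and 0.56 ± 0.12, and Stac3 by 0.87 ± 0.19, 0.83 ± 0.21 and 0.81 ± 0.19. The paclitaxel count was 0 after adjustment for GC slope, 3 with the high-slope libraries left out and 2 in a fit of the compared groups alone, and the cisplatin count was 2 in the last of these. In females 1 gene fell with the tumour, Nr4a1 (-1.66 ± 0.43), and 0 were called with any drug.

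Among 21 class II deacetylases, their kinases and partners, 1 rose and 3 fell with the male tumour, a share no higher than the 26.1% of all genes. Camk2a, a calcium-dependent kinase of the family that exports HDAC4 from the nucleus, fell by 0.99 ± 0.16 and Hdac9, a relative of Hdac4, by 1.22 ± 0.30, and so did Camk2g, whereas the kinase gene Prkd1 rose by 0.66 ± 0.16. Against C26 saline Camk2a rose by 0.95 ± 0.16 with 5-fluorouracil, 0.82 ± 0.17 with paclitaxel and 1.01 ± 0.16 with cisplatin. These 3 rises held both adjusted for GC slope and with the high-slope libraries left out. In all, 3 genes rose and 1 fell with 5-fluorouracil, 6 and 1 with paclitaxel and 2 and 1 with cisplatin, near the 23.3%, 31.9% and 15.9% of all genes, and the paclitaxel count of 7 called genes was 1 under either GC setting. In females Hdac9 fell with the tumour (-1.06 ± 0.32), in 8 of 14 fits that left out 1 library.

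The other lists are given in turn, to be read beside the same shares of all genes. Among genes upstream of the myogenic factors, Mrtfa, a coactivator of serum response factor, fell with the male tumour (-1.43 ± 0.23), as did Nfix (-0.44 ± 0.12). Mrtfa also fell in females (-0.91 ± 0.25), but not without PBS replicate 6 or C26 saline replicate 3 or 6. Nfix and Mrtfa rose with each drug in males, by 0.55 ± 0.12 and 0.93 ± 0.23 with 5-fluorouracil, 0.68 ± 0.13 and 1.21 ± 0.25 with paclitaxel and 0.58 ± 0.12 and 0.99 ± 0.23 with cisplatin. The Mrtfa call with paclitaxel was lost with the high-slope libraries left out (0.97, adjusted p = 0.0552 by limma).

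Of 16 satellite cell genes 3 rose and 1 fell with the male tumour, near the 26.1% of all genes. The rises were Cdh15, an M-cadherin gene, at 0.83 ± 0.19, Des at 0.67 ± 0.18 and Sdc4 at 1.12 ± 0.34. Calcr, the calcitonin receptor gene of quiescent satellite cells, fell (-0.77 ± 0.30), close to the threshold (adjusted p = 0.0458 by limma). In females Hes1, a Notch target, fell by 1.23 ± 0.30. Of 8 measured genes of fusion and embryonic myosins 0 rose and 2 fell with the male tumour: Jam3 (-0.37 ± 0.13, lost without PBS replicate 1 or 5 or C26 saline replicate 1, 3 or 6) and the cardiac actin gene Actc1. Actc1 fell by 2.99 ± 0.43 with the tumour and rose by 1.83 ± 0.43, 1.31 ± 0.46 and 2.05 ± 0.43 with 5-fluorouracil, paclitaxel and cisplatin. The paclitaxel rise of Actc1 was not called after adjustment for the slope (1.28) and was lost without C26 saline replicate 5 or 8 or paclitaxel replicate 2 or 4.

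Of the 10 genes of Polycomb repressive complex 2, the partner of JARID2, 2 rose and 0 fell with the male tumour, near the 26.1% of all genes called (13.1% higher). The methyltransferase gene Ezh1 rose by 0.75 ± 0.12 (adjusted p = 9.48e-07 by limma) and Eed, a core subunit, by 0.30 ± 0.09. With the drugs Ezh1 fell by 0.51 ± 0.12, 0.48 ± 0.13 and 0.52 ± 0.12, and the counts were 0 higher and 3 lower (Ezh1, Eed, Rbbp4), 0 and 6, and 0 and 2 (Ezh1, Eed), beside 12%, 18.5% and 8.23% of all genes lower. The paclitaxel count was 0 after adjustment for GC slope and 2 with the high-slope libraries left out. Of 14 E proteins, Id proteins and MyoD inhibitors, 1 fell with the tumour in each sex, Bhlhe41, by 1.41 ± 0.21 in males and 0.81 ± 0.22 in females, and it rose by 0.71 ± 0.21 with cisplatin in males. The female call of Bhlhe41 was lost without C26 saline replicate 6, and the male cisplatin call without C26 saline replicate 1. Against female C26 saline 0 genes of these last 5 lists were called with any drug.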

How the data were processed

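Bulk RNA of mouse gastrocnemius was sequenced as 150-base paired reads, per the labels' protocols. Per the submitters' processing notes Salmon, fastp, edgeR, limma, FastQC and MultiQC were used with the build GRCm39 (mm39), with no version or role given. The authors deposited log2 expression values for 13856 genes in 74 libraries, and from the values these are log2 of an estimated count plus 0.5 over a scaled library size. Solving for the count gave 85.0 to 90.7% of a library's values within 0.02 of a whole number, so count tests were not run.

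Of 75 libraries in the labels 1 (female PBS replicate 8) was not analysed here, and 1 was left out because its title names saline and its treatment label 5-fluorouracil. The other 73 were grouped by title and fitted together with limma 3.58.1 under R 4.3.3 (functions lmFit and contrasts.fit, then eBayes with its trend option; 63 residual degrees of freedom), two-sided, with Benjamini-Hochberg adjustment over all genes, in 18 comparisons. All libraries carry 1 batch label. The fit was also run on simulated normal values, drawn independently for each gene and library and without a GC slope. That run cannot show how the fit performs on these libraries. Python 3.11.15 (pandas 2.3.3, numpy 2.4.6, matplotlib 3.10.9) made the summaries.

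The GC slope comes from a regression of a library's deviations from the gene means on transcript GC content (in SDs) and log2 length, in the 10637 genes whose mean log2 reached 1. Transcript GC content came from GENCODE vM21 (GRCm38), which matched 13791 gene IDs (99.5%). That build is not the authors', so the promoter coordinates are those of the RefSeq table and none are given from the files. Salmon divides reads between alike transcripts.

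Other settings were quantile normalization, a mean log2 of at least 1, a raised pseudocount (1 added to the linear value), the compared groups alone, quality weights (arrayWeights), a replicate block, the GC slope as a covariate, leaving out the libraries above a slope of 0.1, and leaving out each of the 73 libraries in turn. The counts of the pathway lists under 4 of these settings were added after seeing the data. Named genes were the 9 members, the 3 genes of each of 8 lists with the smallest adjusted p in each of the 8 main comparisons, and the genes with the highest Pearson r with each member. Called genes of a list outside that rule (Chrna1, Sln, Calcr with the tumour, Camk2g with the tumour, Ppargc1a and others named beside a small count) were picked after their values were seen. Some genes of the lists are not reported here. The members and lists were chosen with earlier results of these data known.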

Additional observations from a re-analysis of the deposited data

Results flagged for a closer look

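In 9 of the 90 gene and group combinations 1 library lay far from the others of its group by Dixon's criterion, where chance gives about 1 in 20. Male cisplatin replicate 4, with a GC slope of 0.53, was the highest of 8 for Myog (8.23, next 4.35), Myf6 (7.11, next 6.59) and Mef2d (8.96, next 8.38). Male C26 saline replicate 4, with a slope of 0.00, was the lowest of 8 for Pax7 (-0.075, next 0.69) and the highest for Hdac4 (6.40, next 5.77). Male 5-fluorouracil replicate 7, with a slope of 0.44, was the lowest of 8 for Jarid2 (3.97, next 4.40). In females 5-fluorouracil replicate 1 was the highest of 8 for Myog (5.08, next 3.60), cisplatin replicate 1 the highest of 6 for Myf6 (6.42, next 5.92) and cisplatin replicate 2 the lowest of 6 for Mef2a (6.24, next 6.60).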

How the results depend on the processing

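No called difference of a member changed its sign under any setting, although estimates that were not called did under several settings (for example Myod1 with male paclitaxel against C26 saline, -0.40 to 0.62 when single libraries were left out). Of the 162 differences of the 9 genes in 18 comparisons, 160 had the same verdict (the side of the threshold and, where called, the sign) with quantile normalization, 160 with a mean log2 of at least 1, 161 with the raised pseudocount, 153 with the compared groups alone, 142 with quality weights, 160 with a replicate block, 153 after adjustment for GC slope and 145 with the high-slope libraries left out. With quality weights all 20 that moved became called.

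Beside each count of members below, the number of all genes called in the same fit is in brackets. The number of members called against male PBS with 5-fluorouracil was 2 with quantile normalization (683), with a mean log2 of at least 1 (627), with the raised pseudocount (744) and with the compared groups alone (332). It was 3 with quality weights (3292) and 0 with the high-slope libraries left out (34), against 1 in the fit of all libraries (659). For female 5-fluorouracil against C26 saline it was 0 with a mean log2 of at least 1 (108) and with the high-slope libraries left out (251), and 3 with quality weights (987). For female cisplatin against C26 saline it was 2 with the compared groups alone (668) and with the high-slope libraries left out (906), and 3 with quality weights (2325). For the female tumour it was 4 with quality weights (2047) and with the high-slope libraries left out (1654). For female paclitaxel against PBS it was 2 with the compared groups alone (583) and with quality weights (1907), and 0 with the high-slope libraries left out (683). For female cisplatin against PBS it was 1 with quality weights (868). For male paclitaxel against PBS it was 3 with the compared groups alone (4199), 8 with quality weights (6740), 1 after adjustment for the slope (1235) and 0 with the high-slope libraries left out (10). With the compared groups alone it was 2 for male paclitaxel (2983) and 2 for male cisplatin (1028) against C26 saline, and with quality weights 5 for male 5-fluorouracil against C26 saline (3459). Interactions with sex reached 2 for the tumour (255) and 1 for each drug with quality weights (456 for 5-fluorouracil, 3714 for paclitaxel and 355 for cisplatin). The cause of these changes was not tested.

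When each library was left out in turn the count of members ranged from 0 to 1 for female 5-fluorouracil and female cisplatin against C26 saline, female paclitaxel against PBS and the interactions of the tumour and of cisplatin. It ranged from 2 to 4 for male 5-fluorouracil, 3 to 4 for male paclitaxel and 3 to 5 for male cisplatin against C26 saline. Against male PBS it ranged from 0 to 4 for 5-fluorouracil (4 without 5-fluorouracil replicate 1, 3 without replicate 6 and 0 without replicate 7) and from 2 to 8 for paclitaxel (2 without paclitaxel replicate 2 or 3 and 8 without replicate 4). The count stayed at 5 for the male and 2 for the female tumour.

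The replicate numbers paired libraries by correlation of their deviations in 1 comparison, female paclitaxel against C26 saline (7 of 7 pairs, r from 0.156 to 0.80), where 0 members were called with or without the block. With a replicate block the count for female 5-fluorouracil against C26 saline went to 0, and Mef2d was called for male paclitaxel against PBS (0.32, adjusted p = 0.0404 by limma). The block moved no count of all called genes by over 1.5 times.

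Counts over all genes moved with the setting. The 928 genes of the female tumour became 1913 after adjustment for GC slope, 1654 with the high-slope libraries left out and 2047 with quality weights. In females the 187 of 5-fluorouracil became 108 under the filter on the mean, 87 with the compared groups alone, 424 after adjustment for the slope and 987 with weights. The 230 of cisplatin became 668 with the compared groups alone, 416 with the slope, 906 with the high-slope libraries left out and 2325 with weights. In males adjustment for the slope gave 5634 for the tumour, 506 for paclitaxel and 3964 for cisplatin against C26 saline, and leaving out the high-slope libraries gave 722 for paclitaxel and 3407 for cisplatin. The compared groups alone gave 1028 for male cisplatin. Against PBS, male paclitaxel went from 5192 to 1235 with the slope and 10 with the high-slope libraries left out, male 5-fluorouracil from 659 to 332 (compared groups alone), 3292 (weights), 389 (slope) and 34 (without), male cisplatin from 125 to 67, 312, 412 and 54, and female paclitaxel from 635 to 1907 (weights) and 1332 (slope). For female 5-fluorouracil and cisplatin against PBS the 53 and 29 became 86 and 185 with the compared groups alone, 390 and 868 with weights and 159 and 97 with the slope. The interaction of the tumour went from 5 to 0 (mean of at least 1), 8 (raised pseudocount), 10 (compared groups alone), 255 (weights) and 35 (slope), and weights gave 456, 3714 and 355 for the drugs.

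Depth limits Pax7, with as few as 8 recovered counts in a library, while the other members had at least 54. With the high-slope libraries left out 2 male paclitaxel and 4 male 5-fluorouracil libraries remained.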
